A study of Mus musculus with 18 samples.

Results

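The leukocyte integrins are described here by 10 genes, taken from the 29437 genes of the deposited count table by their symbols: the alpha subunit genes Itgal, Itgam, Itgax, Itga4, Itga5, Itga6 and Itgae, and the beta subunit genes Itgb2, Itgb1 and Itgb7. The genes were picked by symbol, with earlier results of these data known. All 10 passed the filter on low counts that left 16325 genes for testing. RNA was sequenced, after amplification with SMART-Seq v4, from 3 populations sorted from mouse bone marrow as lineage-negative Sca1+ ckit+ cells. The long-term haematopoietic stem cells (LT-HSC) were CD48- CD150+, the multipotent progenitors MPP3 were CD48+ CD150- Flt3-, and the multipotent progenitors MPP4 were CD48+ CD150- Flt3+. The series' design text calls MPP3 myeloid biased and MPP4 lymphoid biased. Each population came from 3 Helios null mice (KO) and 3 wild-type mice (WT), all aged 10 weeks, which gave 6 groups of 3 libraries. P-values here measure the spread between libraries of different mice within a group. The main test does not pair the populations of a mouse, and a block by mouse was an alternative. Helios is the zinc finger protein encoded by Ikzf2, a member of the Ikaros family of lymphoid transcription factors; the exons that the null allele lacks, and any limit of the deletion to certain cells, are not stated in the sources used here.

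Integrins are receptors made of 1 alpha and 1 beta chain that hold a cell to its neighbours and to the extracellular matrix. The beta 2 chain (Itgb2, CD18) pairs with alpha L (Itgal, CD11a), alpha M (Itgam, CD11b) or alpha X (Itgax, CD11c), and the pairs bind intercellular adhesion molecules and complement fragments. The beta 1 chain (Itgb1, CD29) pairs with alpha 4 (Itga4, CD49d), which binds VCAM-1 and helps to keep stem and progenitor cells in the marrow, with alpha 5 (Itga5, CD49e), a fibronectin receptor, and with alpha 6 (Itga6, CD49f), a laminin receptor. The beta 7 chain (Itgb7) pairs with alpha 4 as a gut-homing receptor and with alpha E (Itgae, CD103), which binds E-cadherin. An alpha chain needs its beta chain to reach the cell surface, so the mRNA of 1 chain alone does not give the amount of receptor.

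Itgal, Itgam and Itgax lie on mouse chromosome 7 in the mm10 build, at chr7:127296260-127335138, chr7:128062640-128118491 and chr7:128129547-128150657, all on the plus strand. Itgax starts 11.06 kb after the end of Itgam, and Itgam starts 727.5 kb after the end of Itgal. The deposited positions of all 10 genes equal those of GENCODE M21. Promoters were found in RefSeq's table (GRCm38.p6, 250 bases before to 50 after RefSeq's own gene start) for 6 of the 10 genes, Itgax, Itgam, Itga4, Itgb1, Itgb7 and Itga5, and not for Itgal, Itgb2, Itga6 and Itgae. The lines that follow give those of Itgax and its neighbour Itgam, since the counts of both were low in KO LT-HSC, and those of Itgb7, which was higher in MPP4 than in LT-HSC, and of its partner Itga4. Capitals mark a match to a core motif on either strand, with TGGGAA searched for the Ikaros family, GAGGAAGT for PU.1 and TGTGGT for RUNX factors, with no overlap between matches.
Itgax (chr7:128129300-128129599, plus strand): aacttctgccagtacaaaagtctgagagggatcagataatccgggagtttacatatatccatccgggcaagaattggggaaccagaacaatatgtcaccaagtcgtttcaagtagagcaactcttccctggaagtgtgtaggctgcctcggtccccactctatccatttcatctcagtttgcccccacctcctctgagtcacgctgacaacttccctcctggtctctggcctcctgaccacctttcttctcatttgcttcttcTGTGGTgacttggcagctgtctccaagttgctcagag
Itgam (chr7:128062390-128062689, plus strand): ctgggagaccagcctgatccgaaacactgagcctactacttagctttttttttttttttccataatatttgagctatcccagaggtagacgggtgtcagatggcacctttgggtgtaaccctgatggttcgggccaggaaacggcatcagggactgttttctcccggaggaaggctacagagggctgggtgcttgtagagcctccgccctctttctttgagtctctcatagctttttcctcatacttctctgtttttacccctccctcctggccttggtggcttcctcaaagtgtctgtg
Itgb7 (chr15:102231886-102232185, minus strand): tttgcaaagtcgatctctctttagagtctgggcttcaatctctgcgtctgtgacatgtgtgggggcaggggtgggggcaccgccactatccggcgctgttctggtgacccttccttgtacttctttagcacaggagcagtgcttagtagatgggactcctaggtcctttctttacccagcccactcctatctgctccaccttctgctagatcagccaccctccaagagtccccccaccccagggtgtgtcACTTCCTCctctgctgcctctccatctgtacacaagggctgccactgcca
Itga4 (chr2:79255176-79255475, plus strand): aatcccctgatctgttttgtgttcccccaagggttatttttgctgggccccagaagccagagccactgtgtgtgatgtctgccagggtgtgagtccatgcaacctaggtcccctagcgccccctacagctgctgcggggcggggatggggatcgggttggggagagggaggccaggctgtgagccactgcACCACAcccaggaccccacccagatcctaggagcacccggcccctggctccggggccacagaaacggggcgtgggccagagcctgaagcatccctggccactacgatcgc
Counted from 1 at the gene start of RefSeq's table, which is not the GENCODE start for Itgax and Itgb7, the RUNX core of Itgax began at base 14, and the reverse complement of the RUNX core lay upstream in Itga4, at base -60. The reverse complement of the PU.1 core in Itgb7 began at base 1. The promoters of Itgam, Itgb1 and Itga5 held none of the letters searched, and TGGGAA was in none of the 6. Of all 32851 promoters of this length, 25.6% held TGGGAA, 3.2% held GAGGAAGT and 16.8% held TGTGGT, so a match in a single promoter is a description of its letters and not of a bound site.

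The libraries held 21053050 to 45410959 reads counted in genes and detected 17362 to 20272 genes, and the libraries numbered 1 detected the fewest (17362 to 18896). Reads for Ikzf2, the deleted gene, did not overlap between genotypes in any population: 6.56 to 11.2 CPM (counts scaled to a common library size by TMM) against 39.4 to 42.0 CPM in LT-HSC, 19.0 to 24.0 CPM against 38.3 to 65.6 CPM in MPP3, and 3.55 to 11.1 CPM against 27.1 to 37.1 CPM in MPP4. Of all tested genes 15.3%, 10.6% and 7.98% did not overlap in LT-HSC, MPP3 and MPP4. In edgeR's quasi-likelihood test Ikzf2 passed an adjusted p of 0.05 in LT-HSC alone (log2 -2.07, adjusted p = 0.0259). It did not pass in MPP3 (log2 -1.24, adjusted p = 0.66) or in MPP4 (log2 -1.98, adjusted p = 0.0656). Flt3 and Cd48, the genes of 2 sorting markers, had 2705 to 3640 CPM and 229.5 to 415 CPM in MPP4, against 57.1 to 114 CPM and 2.47 to 10.4 CPM in LT-HSC. MPP3, sorted as Flt3-, still had 553 to 876 CPM of Flt3. LT-HSC WT 2 and WT 3 carried transcripts of mature neutrophils, and MPP3 KO 1, WT 1 and WT 2 carried transcripts of plasma cells; results without these 5 libraries stand beside those they move most. The libraries kept in those results were not free of such transcripts. Listed neutrophil genes other than Padi4 (13 genes) summed to 63.8 CPM in MPP3 WT 3 and 54.0 CPM in MPP3 KO 2. They summed to 80.2 CPM in LT-HSC WT 2. Those results also leave LT-HSC WT 1 and MPP3 WT 3 alone in their groups. These are bulk libraries, so fewer cells expressing a gene and less RNA per cell cannot be told apart.

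Across the populations the 10 genes split into those higher in MPP3 or MPP4 than in LT-HSC, those lower, and those that passed in neither direction. Rise, fall and step here compare sorted populations in the order LT-HSC, MPP3 and MPP4, and do not follow cells from one to the next. In WT mice, 6 of the 10 genes differed between MPP3 and LT-HSC at an adjusted p under 0.05 in edgeR's quasi-likelihood test, where 17.3% of all tested genes did. Itgal, Itgam and Itgb7 were higher in MPP3, and Itga5, Itga6 and Itgb1 were lower. Between MPP4 and LT-HSC in WT mice 7 of the 10 differed, against 27.2% of all tested genes, and Itgax joined the higher genes. In KO mice the MPP4 comparison called 7 genes, the same 7 names in the same directions, where the background was 20.1%. The MPP3 comparison in KO mice called 4, Itgal, Itgam, Itgax and Itgb7, all higher, where 13.7% of tested genes were called and 6.85% were called higher. MPP4 differed from MPP3 in 4 genes in KO mice, with a background of 5.44%, and in 3 in WT mice, with a background of 4.81%. The median log2 difference of the 10 genes between MPP4 and LT-HSC was 0.18 in KO mice and 0.41 in WT mice, beside medians over all tested genes of 0.01 in KO mice and -0.01 in WT mice.

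**Figure D1:**
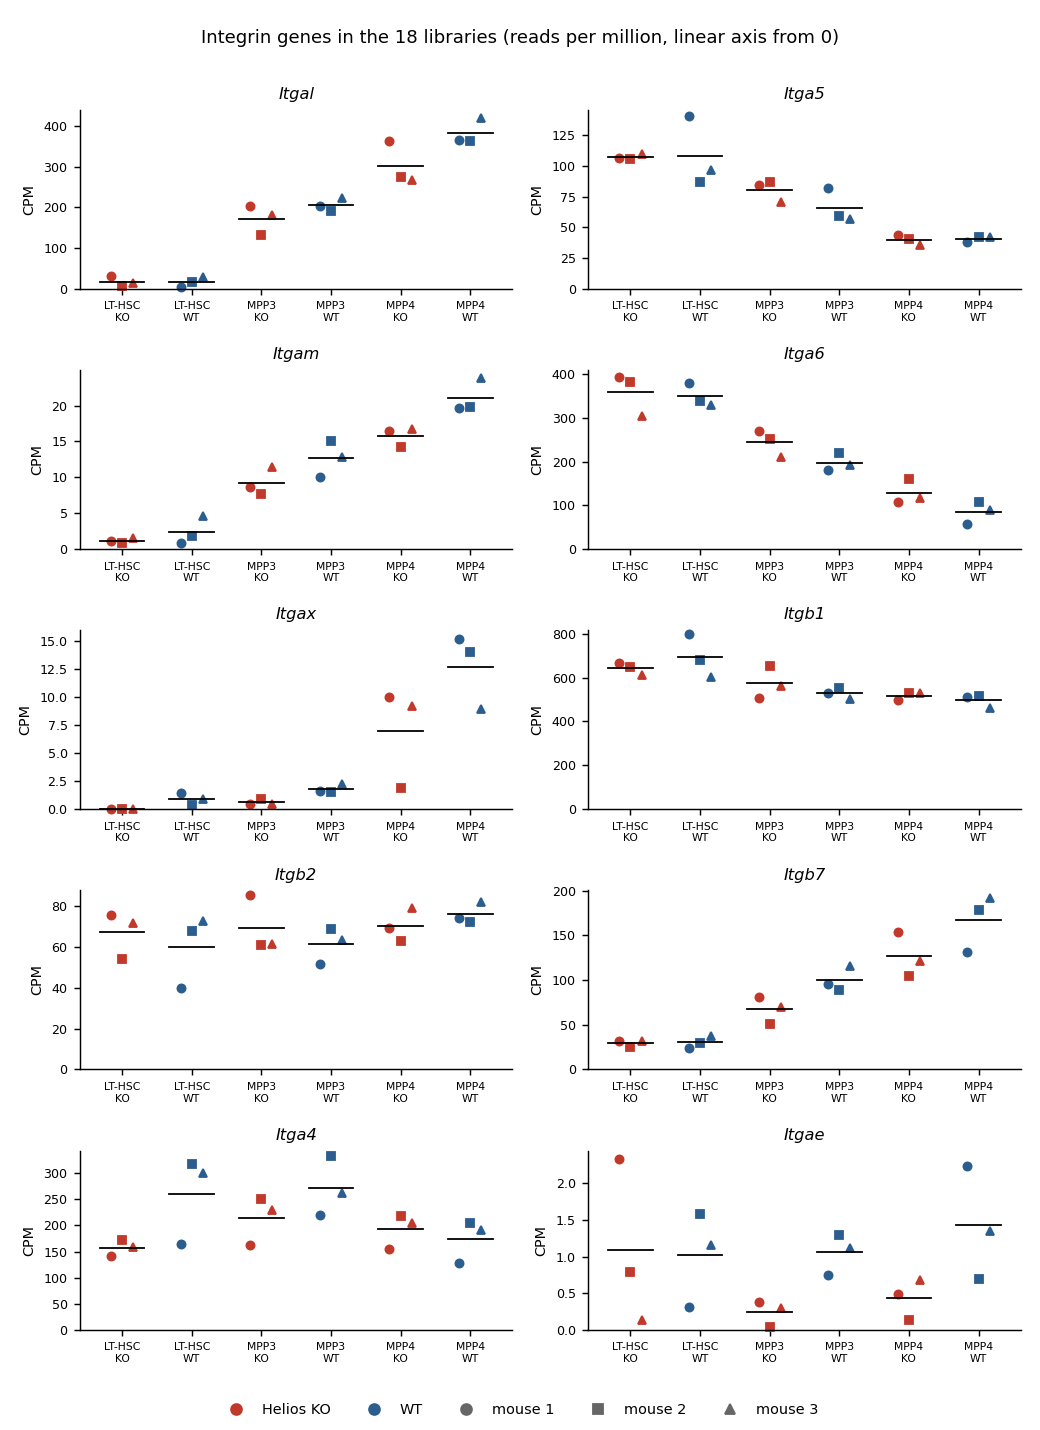
Each panel plots 1 gene in CPM on a linear axis from 0 against the 6 groups, with KO (red) left of WT (blue) in each population, a point per library, a marker shape per mouse number and a bar at the group mean. Itgal, Itgam, Itgax and Itgb7 climb to the right, Itga5 and Itga6 fall, and Itgb2 stays between 39.8 and 85.5 CPM in all 18 libraries.

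The alpha L gene Itgal showed the steepest rise by the fitted difference among the members with reads in every library. In KO mice it had 31.0, 7.17 and 14.9 CPM in LT-HSC, 204, 132 and 180 CPM in MPP3, and 363, 274 and 268 CPM in MPP4. In WT mice it had 3.94, 16.8 and 27.9 CPM in LT-HSC, 203, 190 and 223 CPM in MPP3, and 366, 363 and 419 CPM in MPP4. The 3 populations did not overlap within a genotype. MPP4 exceeded LT-HSC by 17.1-fold in KO mice (log2 4.09 ± 0.53 SE, edgeR adjusted p = 2.85e-05) and by 23.3-fold in WT mice (log2 4.54 ± 0.54, adjusted p = 1.13e-05). MPP3 exceeded LT-HSC by 9.72-fold in KO mice and by 12.5-fold in WT mice. The step between MPP4 and MPP3 did not pass in either genotype (log2 0.81 ± 0.47 in KO mice, adjusted p = 0.449; log2 0.90 ± 0.47 in WT mice, adjusted p = 0.422), although limma voom, taking mouse as a random effect, called it in both. Without WT mouse 3 the MPP4 to LT-HSC difference in WT mice was log2 5.14, and without the 5 libraries carrying transcripts of other cells, which leaves LT-HSC WT 1 alone, it was log2 6.61; the MPP3 difference was log2 4.25 and 5.83 in these 2 alternatives, against 3.64 with all libraries. Without KO mouse 1 the MPP4 difference in KO mice was log2 4.63.

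Itgam, a marker of granulocytes and macrophages, rose along the same order from a much lower start. KO libraries had 1.06, 0.896 and 1.56 CPM in LT-HSC, 8.58, 7.69 and 11.5 CPM in MPP3, and 16.5, 14.2 and 16.7 CPM in MPP4. WT libraries had 0.780, 1.83 and 4.61 CPM in LT-HSC, 10.0, 15.1 and 12.9 CPM in MPP3, and 19.7, 19.8 and 23.8 CPM in MPP4. Again no 2 populations overlapped within a genotype. MPP4 exceeded LT-HSC by 13.5-fold in KO mice (log2 3.76 ± 0.47, edgeR adjusted p = 1.72e-05) and by 8.6-fold in WT mice (log2 3.10 ± 0.44, adjusted p = 6.78e-05). The WT difference was log2 3.92 without WT mouse 3 and log2 4.76 without the 5 libraries carrying transcripts of other cells, above the KO difference in both cases, so the order of the genotypes' folds is not stable. The MPP3 to LT-HSC difference in WT mice was log2 2.37, and log2 3.27 and 4.05 in the same 2 alternatives. Although MPP3 is the myeloid-biased population by the design text, its Itgam level was below that of every MPP4 library of the same genotype. The MPP4 to MPP3 difference of log2 0.77 ± 0.41 in KO mice and 0.74 ± 0.41 in WT mice did not pass in edgeR (adjusted p = 0.385 and 0.473).

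Itgax, used as a marker of dendritic cells, was the rarest of the beta 2 partners and was highest in MPP4. The KO values were 0 reads in all 3 LT-HSC libraries, 13, 24 and 12 reads in MPP3 (0.450, 0.913 and 0.449 CPM), and 9.98, 1.86 and 9.18 CPM in MPP4. The WT values were 38, 10 and 44 reads in LT-HSC (1.48, 0.417 and 0.943 CPM), 1.65, 1.51 and 2.24 CPM in MPP3, and 15.2, 14.0 and 8.94 CPM in MPP4. The MPP4 libraries all stood above the MPP3 libraries of their genotype, and MPP4 KO 2 stood far below the other KO libraries. Reads were pooled over each group for these bounds, with a floor of 3 reads over the group for the absent counts. On that basis MPP3 was at least 15.6-fold higher and MPP4 at least 190.6-fold higher than LT-HSC in KO mice. In WT mice MPP4 exceeded LT-HSC by 13.4-fold (log2 3.74 ± 0.64, edgeR adjusted p = 0.000556). MPP4 also exceeded MPP3, by 11.6-fold in KO mice (adjusted p = 0.00366) and by 7.04-fold in WT mice (adjusted p = 0.0131). The MPP3 to LT-HSC difference in WT mice, 1.9-fold, did not pass (adjusted p = 0.315), although the libraries did not overlap. Some of the 16 genes listed for dendritic cells and macrophages were also higher in MPP4, where the list summed to 337 to 470.1 CPM in KO and 343 to 457 CPM in WT, against 252 to 435 CPM in LT-HSC KO and 254 to 347 CPM in LT-HSC WT. Other genes of the list were lower in MPP4. Zbtb46 had 21 reads in MPP4 KO and 52 in MPP4 WT, against 429 in LT-HSC KO and 538 in LT-HSC WT. Clec9a had 0 reads in MPP4 KO and 4 in MPP4 WT, against 172 in LT-HSC KO and 289 in LT-HSC WT. Among the higher genes, Siglech had 67 reads in MPP4 KO and 318 in MPP4 WT, against 0 in LT-HSC of both genotypes. Csf1r had 68.6 to 190.1 CPM in MPP4 KO and 93.0 to 154 CPM in MPP4 WT, against at most 6.54 CPM in LT-HSC KO and 7.13 CPM in LT-HSC WT, and the part of such cells in the Itgax counts was not tested.

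Itgb2, the beta chain that all 3 of these alpha chains need, did not follow them. In KO animals it stood at 75.5, 54.3 and 71.9 CPM in LT-HSC, 85.5, 61.2 and 61.7 CPM in MPP3, and 69.4, 62.9 and 79.2 CPM in MPP4. In WT animals it stood at 39.8, 67.9 and 72.8 CPM in LT-HSC, 51.8, 68.9 and 63.7 CPM in MPP3, and 74.5, 72.4 and 81.9 CPM in MPP4. LT-HSC and MPP4 overlapped in both genotypes, and the MPP4 to LT-HSC difference was log2 0.07 in KO mice (95% interval -0.36 to 0.50) and 0.34 in WT mice (-0.09 to 0.77). Without the 5 libraries that carry transcripts of other cells, LT-HSC WT is WT 1 alone and the WT difference was log2 0.95; its edgeR adjusted p of 0.0123 assumes that this lone library varies like the other groups.

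Since the levels of different genes can be compared only per length, CPM was divided by the length of each gene's principal GENCODE transcript in kb. On that scale Itgal stood at 0.143 ± 0.082 of Itgb2 in LT-HSC KO and 0.139 ± 0.081 in LT-HSC WT (SD, n = 3 each). It reached 1.42 ± 0.23 in MPP3 KO and 1.94 ± 0.34 in MPP3 WT, and 2.47 ± 0.53 in MPP4 KO and 2.87 ± 0.06 in MPP4 WT. Alpha L mRNA was thus below beta 2 mRNA in all 6 LT-HSC libraries and above it in all 12 progenitor libraries. Itgam over Itgb2 reached 0.144 ± 0.008 in MPP4 KO and 0.176 ± 0.009 in MPP4 WT, against 0.0111 ± 0.0025 in LT-HSC KO and 0.0234 ± 0.0149 in LT-HSC WT. Among the 3 beta 2 partners Itgal held 89.8% to 95.3% of the summed level in the 12 progenitor libraries. These ratios were not tested.

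**Figure D2:**
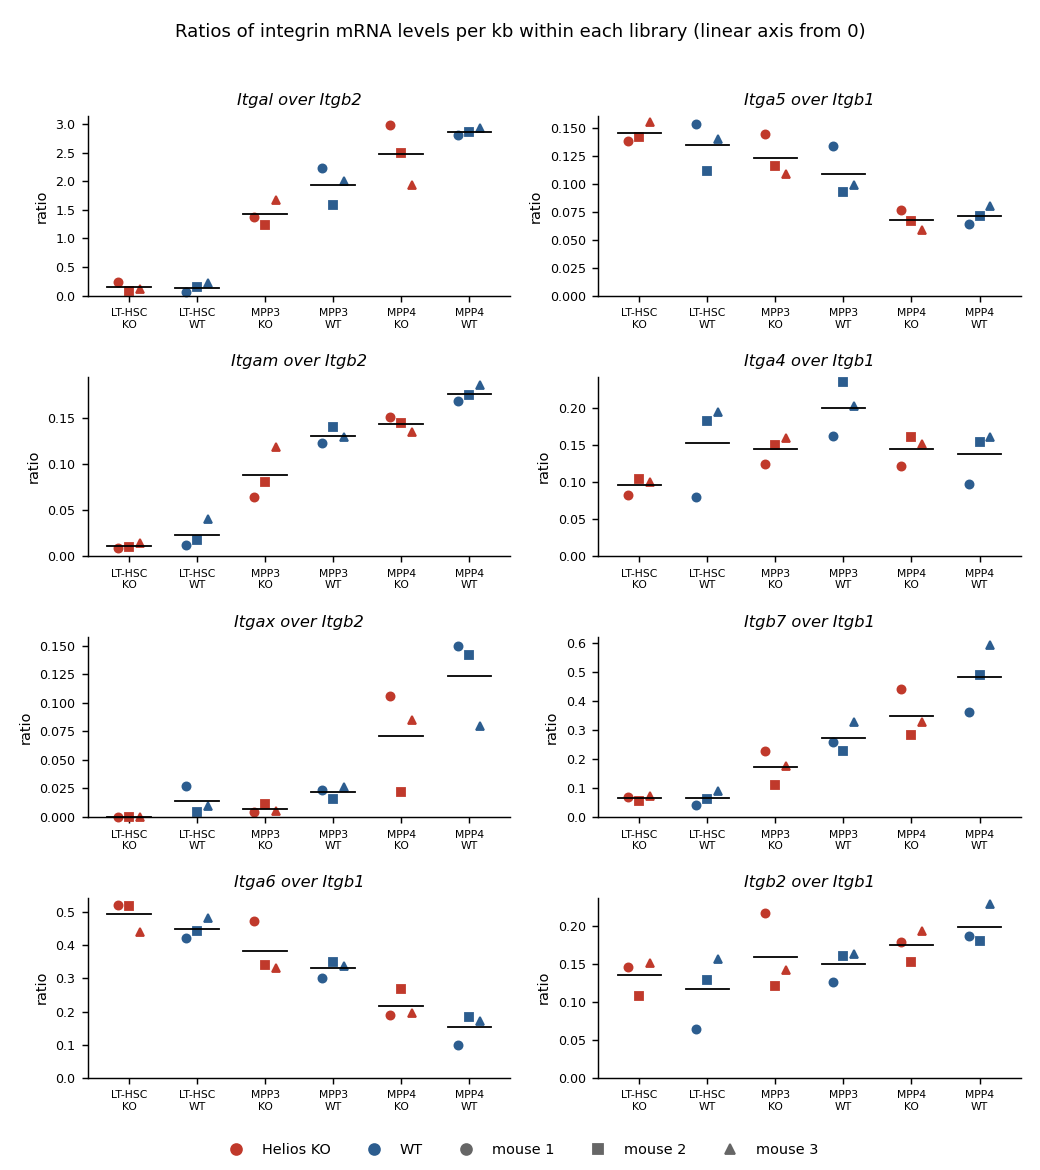
Each panel plots a ratio of 2 integrin mRNA levels per kb of principal transcript within a library, on a linear axis from 0, with KO (red) left of WT (blue), a marker shape per mouse number and a bar at the group mean. Itgal over Itgb2 is at most 0.235 in LT-HSC and at least 1.23 in every MPP3 and MPP4 library, while Itga6 over Itgb1 falls to a mean of 0.218 in MPP4 KO and 0.152 in MPP4 WT.

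Itgb7, the beta chain of the gut-homing and E-cadherin receptors, rose with the beta 2 partners. KO mice gave 31.6, 25.2 and 31.4 CPM in LT-HSC, 81.0, 51.0 and 69.9 CPM in MPP3, and 154, 105 and 121 CPM in MPP4. WT mice gave 23.8, 30.2 and 37.6 CPM in LT-HSC, 96.0, 89.2 and 116 CPM in MPP3, and 131, 178 and 192 CPM in MPP4. The 3 populations did not overlap in either genotype. MPP4 exceeded LT-HSC by 4.32-fold in KO mice (log2 2.11 ± 0.21, edgeR adjusted p = 2.08e-06) and by 5.47-fold in WT mice (log2 2.45 ± 0.22, adjusted p = 4.20e-07). The MPP4 to MPP3 step passed in KO mice (log2 0.91 ± 0.21, adjusted p = 0.0129) and not in WT mice (log2 0.73 ± 0.21, adjusted p = 0.0508), where it did pass with the mouse as a block (log2 0.72, adjusted p = 0.00169). Over 14 alternative settings the step passed in 11 in KO mice and in 9 in WT mice.

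Itga6, the laminin receptor chain, fell along the same order. Its KO libraries held 393, 381 and 305 CPM in LT-HSC, 271, 252 and 211 CPM in MPP3, and 107, 160 and 116 CPM in MPP4. Its WT libraries held 381, 339 and 329 CPM in LT-HSC, 181, 220 and 192 CPM in MPP3, and 57.7, 108 and 89.3 CPM in MPP4. The populations did not overlap within a genotype. MPP4 was 2.82-fold below LT-HSC in KO mice (log2 -1.50 ± 0.20, edgeR adjusted p = 2.82e-05) and 4.11-fold below in WT mice (log2 -2.04 ± 0.20, adjusted p = 1.26e-06). MPP3 was 1.77-fold below LT-HSC in WT mice (adjusted p = 0.00804); in KO mice the 1.47-fold difference did not pass (adjusted p = 0.0645) and passed with the mouse as a block (log2 -0.55, adjusted p = 0.0357).

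Itga5, the fibronectin receptor chain, was lowest in MPP4. KO levels were 106, 106 and 110 CPM in LT-HSC, 84.3, 87.2 and 70.5 CPM in MPP3, and 43.6, 40.8 and 35.7 CPM in MPP4. WT levels were 141, 86.8 and 96.9 CPM in LT-HSC, 81.9, 59.1 and 57.2 CPM in MPP3, and 38.0, 42.2 and 42.3 CPM in MPP4. MPP4 lay below LT-HSC without overlap, by 2.68-fold in KO mice (log2 -1.42 ± 0.17, edgeR adjusted p = 1.33e-05) and by 2.65-fold in WT mice (log2 -1.41 ± 0.17, adjusted p = 1.43e-05). MPP4 was also 2.01-fold below MPP3 in KO mice (adjusted p = 0.00144) and 1.62-fold below in WT mice (adjusted p = 0.0228).

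Itgb1, the beta chain of both receptors, moved little by comparison. It had 666, 649 and 613 CPM in LT-HSC KO and 498, 529 and 527 CPM in MPP4 KO. The WT libraries had 799, 678 and 601 CPM in LT-HSC and 513, 517 and 461 CPM in MPP4. The LT-HSC libraries all stood above the MPP4 libraries, by 1.24-fold in KO mice (log2 -0.31 ± 0.10 for MPP4 over LT-HSC, edgeR adjusted p = 0.0446) and by 1.39-fold in WT mice (log2 -0.48 ± 0.10, adjusted p = 0.00275). The KO call passed in 8 of 14 alternative settings. Among the losses were those without KO mouse 1, 2 or 3 (edgeR adjusted p = 0.21, 0.124 and 0.118) and without WT mouse 2 (0.08). Itga6 over Itgb1 per kb averaged 0.494 ± 0.047 in LT-HSC KO and 0.450 ± 0.032 in LT-HSC WT, against 0.218 ± 0.043 in MPP4 KO and 0.152 ± 0.046 in MPP4 WT.

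Itga4, the partner of both beta 1 and beta 7, followed neither course. The KO libraries had 141, 173 and 158 CPM in LT-HSC, 162, 250 and 229 CPM in MPP3, and 156, 218 and 204 CPM in MPP4. For WT it had 165, 318 and 300 CPM in LT-HSC, 221, 333 and 263 CPM in MPP3, and 127, 205 and 191 CPM in MPP4. In both genotypes and all 3 populations the library of mouse 1 was the lowest. With the mouse as a block in edgeR, MPP4 passed as lower than LT-HSC in WT mice (log2 -0.56, edgeR adjusted p = 0.00117) and as lower than MPP3 (log2 -0.66, adjusted p = 0.00165), and MPP3 passed as higher than LT-HSC in KO mice (log2 0.42, adjusted p = 0.0117). In edgeR on all 18 libraries with no block none of the 3 passed, with log2 values of -0.58 ± 0.24 (adjusted p = 0.0842), -0.64 ± 0.24 (adjusted p = 0.182) and 0.44 ± 0.24 (adjusted p = 0.251). With limma voom taking mouse as a random effect the first alone passed (adjusted p = 0.0273), as it did with DESeq2 (0.0373) and without WT mouse 1 (0.0413). In the mice numbered 2 and 3 alone all 3 passed (0.00363, 0.0240 and 0.0190). Without the 5 libraries carrying transcripts of other cells, the WT difference between MPP4 and LT-HSC was log2 0.09.

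Itgae, the E-cadherin receptor chain, was near the limit of detection in all 18 libraries, with 1 to 66 reads and no population difference that passed. The gene overlaps Haspin on the opposite strand, which had 472 to 1265 reads, and the counting's strand setting is not stated in the sources used here, so reads of Haspin and Itgae may not have been told apart. Itga4 overlaps Cerkl on the opposite strand in the same way, but Cerkl had 33 to 228 reads against at least 3425 for Itga4. A few short or predicted genes overlap Itga5, Itga6 and Itgam.

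The sum of the 10 levels per kb varied little, from 312 to 370 CPM per kb in the 18 libraries, while its makeup changed. Itgb1 held 50.1% to 51.6% of the sum in LT-HSC KO and 47.4% to 56.5% in LT-HSC WT, against 38.6% to 42.8% in MPP4 KO and 33.7% to 41.7% in MPP4 WT. Per kb, the order in LT-HSC started with Itgb1 and Itga6 in both genotypes, each apart from the next gene in every library. In LT-HSC KO the order went on with Itga5 and Itgb2, which overlapped, then Itga4, Itgb7 and Itgal, each apart from the next. In LT-HSC WT Itga4, Itga5, Itgb2 and Itgb7 followed, each overlapping with its neighbour. Itgam, Itgae and Itgax stood at the low end in every group. In MPP4 the order was Itgb1, then Itgal and Itgb7, which overlapped, then Itga6, Itgb2 and Itga4, which overlapped with their neighbours in an order that differed between genotypes, and then Itga5. With the authors' median transcript length as the divisor, chosen after the data were seen, Itgb7 over Itgb1 in MPP4 WT was 1.37 in place of 0.482 ± 0.114, so the order of these genes depends on the length used.

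**Figure D3:**
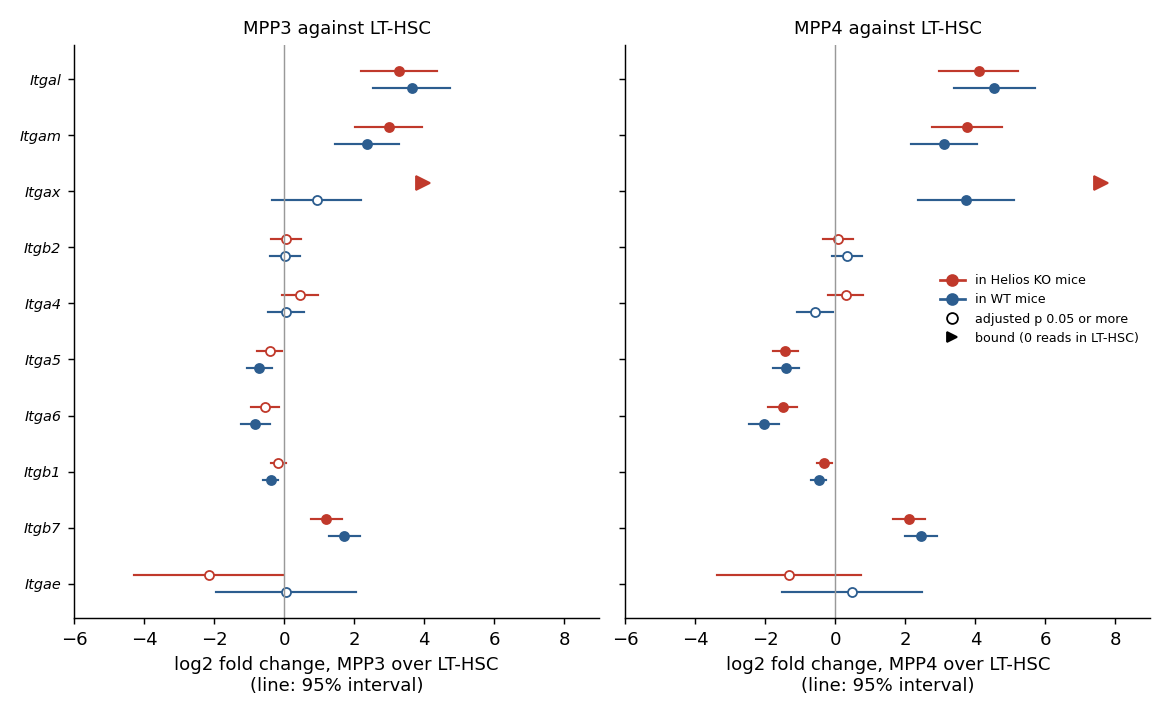
Points give the log2 fold change of each gene in MPP3 over LT-HSC (left) and MPP4 over LT-HSC (right), in KO mice (red, above) and WT mice (blue, below), with lines for the 95% interval and filled points for an adjusted p under 0.05. Triangles give the bound for Itgax, which had 0 reads in KO LT-HSC. Both genotypes place Itgal, Itgam and Itgb7 to the right of 0 in both panels, and the Itgb2 intervals cross 0.

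The population differences differed in how far they held. The 14 alternatives include those that leave out a mouse of the other genotype. There the libraries compared within a genotype stay the same, and only the filter, scaling and spread taken over all libraries change. Itgal, Itgam and Itgb7 passed as higher in MPP3 and in MPP4 than in LT-HSC, in both genotypes, under all 14 alternative settings tried. Itga5 and Itga6 passed as lower in MPP4 than in LT-HSC, in both genotypes, under all 14. For MPP3 against LT-HSC in WT mice, Itgb1 passed in 11 of 14, and Itga5 and Itga6 passed in 12 of 14 each. Among the losses, Itgb1 did not pass without WT mouse 1 or 2 (edgeR adjusted p = 0.181 and 0.0722). Itga5 and Itga6 did not pass without WT mouse 3 (edgeR adjusted p = 0.0689 and 0.0663). Itgax in MPP4 against LT-HSC in WT mice passed in 13 of 14, and not without the 5 libraries carrying transcripts of other cells (0.0645). The calls between MPP4 and MPP3 changed more. In WT mice Itga5, Itga6 and Itgax made 3 calls, against 5 with the mouse as a block in edgeR and 6 with limma voom taking mouse as a random effect; Itga5 lost its call without KO mouse 2, without WT mouse 1, 2 or 3 the sole call was Itga6, and without the 5 libraries carrying transcripts of other cells none did, which leaves MPP3 WT 3 alone in its group. In KO mice the 4 calls (Itga5, Itga6, Itgax and Itgb7) came down to 1, Itga5, without KO mouse 1 or without KO mouse 3. Over the 14 alternatives Itga5 passed in all 14 there, and Itga6, Itgax and Itgb7 passed in 11 each.

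Between genotypes few integrin genes differed. In LT-HSC 1 of the 10 passed, Itgax, lower in KO mice, where 0.0613% of tested genes were called and 0.0429% were called lower. None of the 10 passed in MPP3 or in MPP4 by edgeR, where 0.00613% and 0.0123% of all tested genes were called. Ikzf2, the deleted gene, did not pass in those populations either. At an unadjusted p under 0.05 edgeR gave 3 of the 10 in LT-HSC, 2 in MPP3 and 1 in MPP4, where the shares over all tested genes were 11.2%, 4.59% and 4%. DESeq2 called 1, 0 and 0 of the 10 in LT-HSC, MPP3 and MPP4, and limma voom, taking mouse as a random effect, called 0 in each. The KO and WT libraries did not overlap in 1 gene in LT-HSC, in 3 genes in MPP3 and in 2 genes in MPP4, all lower in KO mice, where 15.3%, 10.6% and 7.98% of all tested genes did not overlap and 6.14%, 5.62% and 4.02% did so with KO lower. The median log2 difference of the 10 genes, KO over WT, was -0.03 in LT-HSC, -0.30 in MPP3 and -0.23 in MPP4, beside medians of 0.01, 0.0045 and 0.0022 over all tested genes.

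Itgax, the 1 member called between genotypes, had in LT-HSC 0 reads in each of the 3 KO libraries, against 38, 10 and 44 reads in the WT libraries, and the groups did not overlap. With a floor of 3 reads over the KO group it was at least 24.9-fold lower in KO LT-HSC (edgeR adjusted p = 0.0221), and the authors' deposited table gives a log2 fold change of -1.74 with an adjusted p of 0.00778. The call rested on all but 1 of the mice: it was lost without KO mouse 1 or 3 (adjusted p = 0.0854 and 0.167) and without WT mouse 1, 2 or 3 (0.0991, 0.0926 and 0.0968), and held without KO mouse 2 (0.0258). It was also lost in the mice numbered 2 and 3 alone (0.205) and passed in 5 of the 14 alternatives, with adjusted p from 8.35e-05 to 0.386. Each of the 14 gave a lower level in KO LT-HSC, and 0 reads in all 3 KO libraries left no other direction possible.

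In MPP3 Itgax was again lower in all 3 KO libraries, at 0.450, 0.913 and 0.449 CPM, against 1.65, 1.51 and 2.24 CPM in the WT libraries. The groups did not overlap, but the 2.98-fold difference did not pass (log2 -1.57 ± 0.61, unadjusted p = 0.0211, edgeR adjusted p = 1). In MPP4 the KO libraries had 9.98, 1.86 and 9.18 CPM, against 15.2, 14.0 and 8.94 CPM in the WT libraries. They overlapped through MPP4 WT 3, and the difference was log2 -0.86 ± 0.57 (adjusted p = 1).

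Itgam, the neighbour of Itgax, stood at 1.06, 0.896 and 1.56 CPM in LT-HSC KO, against 0.780, 1.83 and 4.61 CPM in LT-HSC WT. The groups overlapped, since WT 1 was the lowest of all 6, and the difference of log2 -1.07 ± 0.44 did not pass (unadjusted p = 0.0272, edgeR adjusted p = 0.38). In MPP4 every KO library was lower, at 16.5, 14.2 and 16.7 CPM against 19.7, 19.8 and 23.8 CPM in WT, without passing the test (log2 -0.42 ± 0.41, adjusted p = 1). In MPP3 the KO libraries had 8.58, 7.69 and 11.5 CPM, against 10.0, 15.1 and 12.9 CPM in the WT libraries, and overlapped.

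Mature neutrophils express Itgam and Itgb2. Their transcripts ranked the WT LT-HSC libraries in the same order as Itgam did, and the KO LT-HSC libraries in another order. Itgal, Itgb2, Itgb7 and the number of genes detected also ranked the WT LT-HSC libraries from WT 1, the lowest, to WT 3, the highest. The other members ranked them otherwise. The 14 neutrophil genes of the marker list summed to 70.5, 80.3 and 75.2 CPM in LT-HSC KO, against 86.6, 177 and 340.0 CPM in LT-HSC WT. Padi4 alone gave 66.8 to 71.1 CPM of this in KO and 82.7 to 96.6 CPM in WT, and the other 13 genes summed to 3.71, 9.21 and 5.95 CPM in KO, against 3.86, 80.2 and 252 CPM in WT. From 9 to 12 of the 14 genes had reads in the KO libraries and 6 to 13 in the WT libraries; Cd177 was at 0 in all KO libraries and Il1b in all WT libraries. Without the 5 libraries carrying transcripts of other cells, which leaves WT 1 alone in LT-HSC WT, the Itgam difference was log2 0.57, the opposite direction; the part of neutrophils in the Itgam counts was not tested. Itgax had 1.48, 0.417 and 0.943 CPM in LT-HSC WT 1, 2 and 3, from 38, 10 and 44 reads. The 13 genes were lowest among the WT libraries in WT 1. Itgax had 0 reads in all 3 KO LT-HSC libraries, so its log2 difference without the 5 libraries could only be negative. The part of neutrophils in the Itgax counts was not tested.

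**Figure D4:**
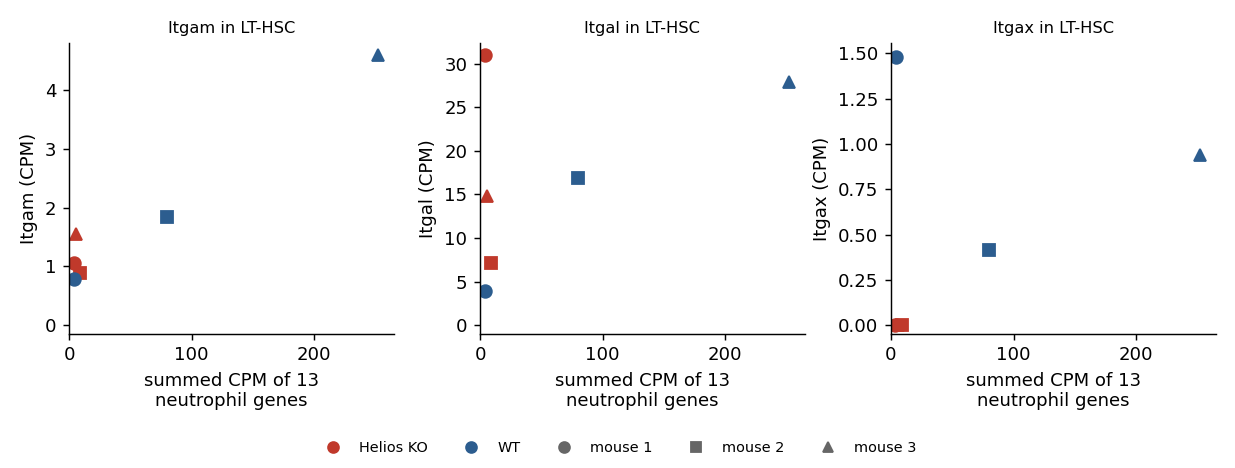
The 3 panels plot the CPM of Itgam, Itgal and Itgax in the 6 LT-HSC libraries against the summed CPM of 13 neutrophil genes other than Padi4, on linear axes, with KO in red, WT in blue and a marker shape per mouse number. Itgam is highest in WT 3, at 4.61 CPM, where the 13 genes sum to 252 CPM, whereas Itgax is highest in WT 1, where they sum to 3.86 CPM.

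Of the 16 genes listed for dendritic cells and macrophages, 12 to 13 had reads in the KO LT-HSC libraries and 11 to 14 in the WT LT-HSC libraries, with sums of 252 to 435 CPM and 254 to 347 CPM. Siglech and Xcr1, which mark plasmacytoid and conventional type 1 dendritic cells, were at 0 in all 6 libraries. Clec9a had 1.65 to 2.58 CPM in KO and 1.33 to 4.63 CPM in WT. Most of the sums came from Cd74 and the class II genes H2-Aa, H2-Ab1 and H2-Eb1, and some macrophage genes had fewer reads in KO. Adgre1 had 106 reads over the 3 KO libraries, against 535 over the 3 WT libraries, C1qb 274 against 675, and Vcam1 959 against 1664. These sums are not scaled to depth, and in CPM the genotypes overlapped. Adgre1 had 0 to 2.79 CPM in KO and 0 to 9.75 CPM in WT. C1qb had 1.38 to 4.94 CPM and 3.71 to 9.85 CPM, and Vcam1 4.84 to 19.75 CPM and 0 to 26.56 CPM. C1qc had 2.44 to 7.28 CPM in KO and 0.624 to 5.85 CPM in WT, and Csf1r 0.883 to 6.54 CPM and 0.117 to 7.13 CPM. The part of such cells in the Itgax counts was not tested.

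Itgal and Itgb2 did not pass between genotypes in any population. The KO over WT difference of Itgal was log2 0.11 ± 0.49 in LT-HSC (95% interval -0.93 to 1.14), -0.25 ± 0.47 in MPP3 and -0.34 ± 0.47 in MPP4. That of Itgb2 was log2 0.16 ± 0.20 in LT-HSC, 0.18 ± 0.20 in MPP3 and -0.11 ± 0.20 in MPP4. In LT-HSC the Itgal libraries spread widely in both genotypes, from 7.17 to 31.0 CPM in KO and from 3.94 to 27.9 CPM in WT.

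Itga4 stood in KO LT-HSC at 141, 173 and 158 CPM, against 165, 318 and 300 CPM in WT LT-HSC. The groups overlapped through WT 1, and the 1.66-fold difference did not pass (log2 -0.73 ± 0.24, unadjusted p = 0.00784, edgeR adjusted p = 0.294). In the mice numbered 2 and 3 alone it passed (log2 -0.90, adjusted p = 0.0203). LT-HSC WT 2 and WT 3, which hold the high values, are also the libraries with neutrophil transcripts, but the library of mouse 1 was the lowest for Itga4 in every group. Without the 5 libraries carrying transcripts of other cells, which leaves WT 1 alone in LT-HSC WT, the difference was log2 -0.07. The part of neutrophils in the Itga4 counts was not tested. In MPP3 the KO over WT difference of Itga4 was log2 -0.35 ± 0.24 and in MPP4 0.14 ± 0.24, with overlapping groups.

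Itgb7 was lower in all 3 KO libraries in MPP3, at 81.0, 51.0 and 69.9 CPM, against 96.0, 89.2 and 116 CPM in the WT libraries. The 1.49-fold difference did not pass (log2 -0.58 ± 0.21, unadjusted p = 0.0125, edgeR adjusted p = 0.988). Plasma cells also express Itgb7, and the 9 genes listed for B and plasma cells summed to 3199, 304 and 337 CPM in MPP3 KO, against 3657, 4019 and 447 CPM in MPP3 WT, with 7 to 9 of the 9 detected in each. Without the 5 libraries, which leaves MPP3 WT 3, the highest of its group, alone, the difference was log2 -0.95. The part of plasma cells in the Itgb7 counts was not tested. In MPP4 the KO libraries had 154, 105 and 121 CPM, against 131, 178 and 192 CPM in WT, and overlapped (log2 -0.40 ± 0.20, adjusted p = 1).

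Itga6 was the member with the highest KO over WT difference in MPP4. It had 107, 160 and 116 CPM in KO MPP4, against 57.7, 108 and 89.3 CPM in WT MPP4. The groups overlapped through KO 1 and WT 2, and the 1.5-fold difference did not pass (log2 0.59 ± 0.19, unadjusted p = 0.00751, edgeR adjusted p = 1). In MPP3 it was log2 0.31 ± 0.19 and in LT-HSC 0.04 ± 0.19. Itga5 stood at log2 -0.01 ± 0.17 in LT-HSC, 0.29 ± 0.17 in MPP3 and -0.03 ± 0.17 in MPP4, and Itgb1 at -0.11 ± 0.10, 0.12 ± 0.10 and 0.06 ± 0.10, none past the threshold. The Itgb1 interval in MPP4 ran from -0.16 to 0.28, the narrowest of the 10 genes.

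Itgae had 11, 1 and 8 reads in KO MPP3, against 19, 31 and 31 reads in WT MPP3, and 13, 3 and 17 reads in KO MPP4, against 60, 21 and 37 reads in WT MPP4. Neither pair of groups overlapped, and neither difference passed (log2 -2.12 ± 1 and -1.70 ± 0.98, edgeR adjusted p = 1 for both). In LT-HSC the KO libraries had 66, 22 and 3 reads and the WT libraries 8, 38 and 54 reads.

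**Figure D5:**
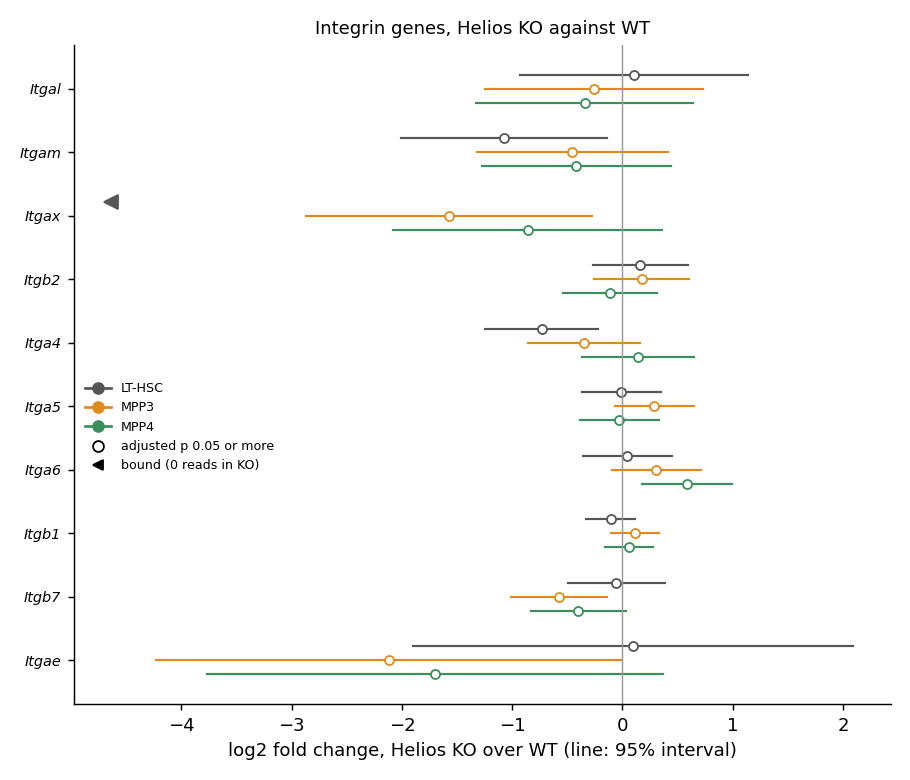
Points give the log2 fold change of KO over WT for each gene in LT-HSC (grey), MPP3 (orange) and MPP4 (green), with lines for the 95% interval; open points have an adjusted p of 0.05 or more. The triangle is the bound for Itgax in LT-HSC, at log2 -4.64, and most other intervals cross 0.

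The size of the KO difference was also compared between populations. None of the 10 genes passed in edgeR for any of the 3 differences, where 0% of all tested genes did. At an unadjusted p under 0.05 it gave 1 gene for MPP3 minus LT-HSC, where the share over all tested genes was 3.69%, 2 for MPP4 minus LT-HSC (6.65%) and 0 for MPP4 minus MPP3 (3.23%). DESeq2 called Itgax for MPP4 minus LT-HSC (adjusted p = 0.018) and no other member, and limma voom, taking mouse as a random effect, called none. For Itgax the edgeR adjusted p of that difference was 0.477 (unadjusted p = 0.000137); the KO LT-HSC group with 0 reads gives no finite size. For Itga4 it was log2 0.88 ± 0.34 (unadjusted p = 0.0203, adjusted p = 0.71). The Itgax call in LT-HSC alone was thus not shown by edgeR to differ from MPP3 or MPP4.

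The 4 lists of other genes of the pathway held 17 other integrin subunits, 17 activators and adaptors, 22 kinases and focal adhesion proteins, and 20 ligands, of which 14 were in the table. Of the 4 lists 13, 16, 19 and 12 genes were tested, and none passed in KO against WT in any of the 3 populations by edgeR, with adjusted p of at least 0.201. Between MPP4 and LT-HSC the other integrin subunits gave 1 higher and 4 lower of 13 in KO mice, where 20.1% of all tested genes were called, with a median log2 difference of 0.21. In WT mice they gave 1 higher and 5 lower, where 27.2% were called, with a median of -0.92. Itga2b, the platelet integrin chain CD41, had 10.6 ± 2.1 CPM in MPP4 KO and 7.45 ± 3.99 CPM in MPP4 WT, against 447 ± 167 CPM in LT-HSC KO and 267 ± 56 CPM in LT-HSC WT (SD, n = 3 each). Its partner Itgb3 had 9.24 ± 5.61 CPM in MPP4 KO and 7.92 ± 5.01 CPM in MPP4 WT, against 157 ± 18 CPM in LT-HSC KO and 84.1 ± 11.6 CPM in LT-HSC WT. Itgb6 had 0 reads in all 6 MPP4 libraries, against 3.48 to 6.18 CPM in LT-HSC KO and 2.83 to 3.32 CPM in LT-HSC WT.

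Among the 16 activators and adaptors 5 were higher and 2 lower in MPP4 than in LT-HSC in KO mice (median log2 0.02, background 20.1%), and 5 higher and 4 lower in WT mice (median 0.004, background 27.2%). Rasgrp2, the exchange factor that loads Rap1 and so activates integrins, had 162 ± 15 CPM in MPP4 KO and 180.5 ± 24.2 CPM in MPP4 WT, against 76.8 ± 7.9 CPM in LT-HSC KO and 65.5 ± 7.4 CPM in LT-HSC WT. Rap1b, its target, went the other way, at 343 ± 38 CPM in MPP4 KO and 349 ± 5 CPM in MPP4 WT, against 782 ± 129 CPM in LT-HSC KO and 659 ± 132 CPM in LT-HSC WT. Cyth1, which binds the beta 2 tail, was higher in MPP4 WT at 74.0 ± 3.0 CPM, against 39.2 ± 9.1 CPM in LT-HSC WT. Among the 19 kinases and focal adhesion proteins 5 were higher and 6 lower in KO mice (median log2 -0.11), and in WT mice (median -0.07) 3 were higher, Parvg among them (714 ± 46 CPM in MPP4 WT, against 323 ± 9 CPM in LT-HSC WT) and Zyx (551 ± 52 CPM, against 370.1 ± 30.1 CPM), and 5 lower, with the kinase Ptk2b at 483 ± 36 CPM in MPP4 WT, against 689 ± 62 CPM in LT-HSC WT. Of the 12 ligands 4 were lower and 0 higher in each genotype (median log2 -0.53 in KO mice and -1.85 in WT mice), and the 3 with the smallest p in WT mice were junctional adhesion molecules. Jam2 had 1.80 ± 1.05 CPM in MPP4 WT, against 48.3 ± 10.4 CPM in LT-HSC WT, Jam3 had 1.86 ± 0.51 CPM, against 19.6 ± 5.2 CPM, and F11r 36.2 ± 6.3 CPM, against 125 ± 8 CPM.

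The genes with the most similar course over the 18 libraries were found by Pearson's correlation of log2 CPM, which all share the same libraries and the same split into 3 populations. For Itgal they were Nlrc3, Arid5a and Palm (r = 0.98, 0.977 and 0.977), for Itgam they included Tyrobp and Chdh (0.979 and 0.971), and for Itgax they were Themis2, Myo1f and Traf3ip2 (0.947, 0.947 and 0.941). For Itgb7 they were Wfdc17, Rasgrp2 and Emb (0.975, 0.974 and 0.973). For Itga6 they were Col4a1, Rab27b and Slc6a15 (0.968, 0.964 and 0.962), and for Itga5 they were Gfi1b, Pf4 and Rhoj (0.969, 0.967 and 0.961). Itgb1 came nearest to Wls, Ppp1r15a and Itsn1 (0.904, 0.900 and 0.900). Itgb2, Itga4 and Itgae, which did not order the populations, had lower highest values: 0.82 with Crocc, 0.818 with Lnpep and 0.733 with Kbtbd2. Within the members the highest r was 0.964, between Itgam and Itgal, and the lowest -0.915, between Itgb1 and Itgb7.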

How the data were processed

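RNA of 18 libraries (6 mice, 3 sorted populations each) was prepared with SMART-Seq v4 and Nextera XT, per the labels' protocols. The deposited counts are whole reads per gene; bcl2fastq 2.17.1.14, DESeq and the mm10 build are named in the submitters' processing notes, and no aligner, counting tool, annotation or strand setting is stated there. The authors' deposited tables also hold normalised signal per library, log2 fold changes and adjusted p-values, whose making the file headers do not describe; they were used only where named. Totals were 21053050 to 45410959 reads per library. The reads carry no molecular identifiers, so floors cover counting error only.

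Counts were fitted with edgeR 4.0.16 (R 4.3.3): filterByExpr left 16325 of 29437 genes, libraries were scaled by TMM, and the quasi-likelihood test used 1 mean per group over all 18 libraries. P-values were adjusted by Benjamini-Hochberg over all tested genes within each of 12 comparisons, with a threshold of 0.05. CPM were computed by edgeR on the TMM-scaled library size, and levels per kb divide them by the principal transcript of GENCODE M21. A group with 0 reads was given a floor of 3 reads over its 3 libraries for bounds on fold changes, which compare reads pooled over each group. The code was tested on simulated counts. Alternatives were DESeq2 1.42.0, limma 3.58.1 voom taking mouse as a random effect, other scalings and filters, blocks by number or mouse, and left-out libraries.

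The 10 members and all lists were chosen with earlier results of these data known. Named genes are the 10 members, Ikzf2, the 3 genes most correlated with each member (mean of at least 5 CPM, no predicted or clone names), and from each pathway list those called between genotypes and the 3 with the smallest p for MPP4 against LT-HSC in WT mice. One gene that this rule names is not reported here. The numbers 1 to 3 in the titles were read as the mouse within a genotype, since the design names 3 mice of each. Deviations from the group means of 2 populations of one mouse correlated at r = 0.041 to 0.182 over 18 pairs, 9 of them over 0.1, so populations of one mouse were blocked as an alternative.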

Additional observations from a re-analysis of the deposited data

How the results depend on the processing

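All 10 members were recomputed under 14 alternatives for 12 comparisons. No member past the threshold changed direction. Of the members' values over all comparisons and alternatives, 1525 kept their direction and side of the threshold, 45 lost the call, 35 gained it and 74 turned round, all of the last among members that had not passed. The count of members between KO and WT in LT-HSC, 1, was 0 with limma voom taking mouse as a random effect, 0 with the groups compared alone, 2 with the replicate block (Itga4 added), 0 without the 5 libraries carrying transcripts of other cells, and 0 to 1 with a mouse left out. The count between MPP4 and MPP3 in WT mice, 3, was 6 with limma voom taking mouse as a random effect, 5 with the groups compared alone, 5 with the replicate block, 0 without the 5 libraries and 1 to 4 with a mouse left out; in KO mice, 4, it was 1 to 4 with a mouse left out. DESeq2 called 1 member for the KO difference, MPP4 minus LT-HSC, where edgeR called 0. Itgb7 over Itgb1 per kb in MPP4 WT, 0.482, was 1.37 with the authors' median transcript length, an alternative chosen after the data were seen. The cause of these changes was not tested.

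KO and WT libraries with the same number correlated in their deviations at r = 0.0084 to 0.0972, 0 of 9 over 0.1. That range overlaps the range for 2 populations of one mouse (0.041 to 0.182). In both genotypes the libraries numbered 1 also detected the fewest genes. Whether libraries of one number share more than the number was not tested. The replicate block of KO against WT uses that number, and that of the populations uses the mouse. For Itga4 between KO and WT in LT-HSC the block gave log2 -0.68 (edgeR adjusted p = 0.0294). With 3 mice a group, Itgae and, in LT-HSC and MPP3, Itgax rested on few reads, and a p that misses the threshold does not show that levels were equal.

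The values that turned round, none of them past the threshold before, were these. Without the 5 libraries carrying transcripts of other cells, the log2 value was Itgam 0.57, Itgb7 0.31 and Itga6 -0.07868 for KO against WT in LT-HSC, Itgb2 -0.05895 for KO against WT in MPP3 and Itga4 0.09222 for MPP4 against LT-HSC in WT. There too, the log2 value was Itgb2 -0.13 for MPP3 against LT-HSC in KO, Itgam -1.01, Itgb2 -0.82 and Itga4 -0.07003 for the KO difference, MPP3 minus LT-HSC and Itgam -0.999 and Itga5 0.35 for the KO difference, MPP4 minus LT-HSC. There too, the log2 value was Itgal 0.17 for the KO difference, MPP4 minus MPP3. In the mice numbered 2 and 3 alone, the log2 value was Itgal -1.04, Itgb2 -0.16, Itgae -1.54 and Itga5 0.23 for KO against WT in LT-HSC, Itgb2 -0.11 for KO against WT in MPP3 and Itgb2 -0.08452, Itga4 -0.05192 and Itgae -0.17 for MPP3 against LT-HSC in WT. There too, the log2 value was Itgae -0.42 for MPP4 against LT-HSC in WT, Itgae -0.25 for MPP4 against MPP3 in WT and Itgb2 -0.03705 for MPP3 against LT-HSC in KO. There too, the log2 value was Itgal 0.64 for the KO difference, MPP3 minus LT-HSC and Itgal 0.52, Itgb2 0.04049 and Itgae 0.24 for the KO difference, MPP4 minus LT-HSC. With limma voom taking mouse as a random effect, the log2 value was Itgae -0.28 and Itga5 0.02823 for KO against WT in LT-HSC. With the replicate block, the log2 value was Itgae -0.21 and Itga5 0.01043 for KO against WT in LT-HSC and Itgb2 -0.006301 for the KO difference, MPP3 minus LT-HSC. With size factors by the median of ratios, the log2 value was Itgb2 -0.007013 for MPP3 against LT-HSC in WT. With DESeq2, the log2 value was Itgb2 -0.01078 for MPP3 against LT-HSC in WT and Itga5 0.001336 for the KO difference, MPP4 minus LT-HSC. With no filter on low counts, the log2 value was Itga5 0.0002409 for the KO difference, MPP4 minus LT-HSC. With a mouse left out in turn, the log2 value turned round for the following members. For KO against WT in LT-HSC, it ran from -0.59 to 0.78 for Itgal, -0.06456 to 0.32 for Itgb2, -0.20 to 0.009016 for Itgb1, -0.21 to 0.13 for Itgb7, -0.02408 to 0.14 for Itga6, -1.12 to 0.60 for Itgae and -0.14 to 0.23 for Itga5. For KO against WT in MPP3, it ran from -0.001885 to 0.27 for Itgb2. For KO against WT in MPP4, it ran from -0.03929 to 0.28 for Itga4 and -0.09347 to 0.04746 for Itga5. For MPP3 against LT-HSC in WT, it ran from -0.08382 to 0.17 for Itgb2, -0.05126 to 0.20 for Itga4 and -0.17 to 0.34 for Itgae. For MPP4 against LT-HSC in WT, it ran from -0.42 to 1.27 for Itgae. For MPP4 against MPP3 in WT, it ran from -0.25 to 0.93 for Itgae. For MPP3 against LT-HSC in KO, it ran from -0.03831 to 0.18 for Itgb2. For MPP4 against MPP3 in KO, it ran from -0.15 to 0.21 for Itgb2. For the KO difference, MPP3 minus LT-HSC, it ran from -0.28 to 0.92 for Itgam, -0.97 to 0.19 for Itgal and -0.12 to 0.16 for Itgb2. For the KO difference, MPP4 minus LT-HSC, it ran from -0.16 to 1.02 for Itgam, -1.05 to 0.09388 for Itgal and -0.30 to 0.14 for Itga5. For the KO difference, MPP4 minus MPP3, it ran from -0.15 to 0.18 for Itgam, -0.18 to 0.02566 for Itgal, -0.11 to 0.03039 for Itgb1 and -0.0847 to 1.09 for Itgae.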

Other observations

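Itgb6, a beta chain of epithelial integrins, was one of the other integrin subunits on the lists. It averaged 5.23 ± 0.81 CPM in MPP3 KO, against 0.839 ± 0.607 CPM in MPP3 WT (SD, n = 3 each). The libraries did not overlap, and the log2 difference of 2.64 ± 0.55 did not pass in edgeR (unadjusted p = 0.0004, adjusted p = 0.495). Itgb3, the partner of Itga2b, averaged 157 ± 18 CPM in LT-HSC KO, against 84.1 ± 11.6 CPM in LT-HSC WT, and its difference of log2 0.90 did not pass either (adjusted p = 0.441). These 2 genes were singled out after their values were seen.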
